A study of Mus musculus with 2 samples.

Results

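Interferon beta, the receptor chains of type I interferon and of interferon gamma, and the 4 Janus kinases were followed in LPS-treated macrophages with and without tristetraprolin (TTP). The 9 genes were chosen by symbol: *Ifnb1*, *Ifnar1*, *Ifnar2*, *Ifngr1*, *Ifngr2*, *Jak1*, *Jak2*, *Jak3* and *Tyk2*. All 9 were found, each once, among the 37451 genes of the deposited expression table. The question addressed was whether the RNA levels of these genes differed between the genotypes.

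The RNA-Seq served as an expression control for the mapping of TTP binding sites by PAR-iCLIP, a method that crosslinks a protein to RNA labeled with 4-thiouridine. It comprised 1 library of WT bone marrow-derived macrophages (BMDMs) of C57BL/6 mice and 1 library of ΔM BMDMs. The ΔM cells came from C57BL/6 TTP fl/fl LysMCre mice, in which Cre recombinase driven from the lysozyme M locus deletes the TTP gene *Zfp36* in myeloid cells. Both genotypes were littermates of 7 to 9 weeks of age. All cells were grown in CSF-1 from L929 cells, given 100 µM 4-thiouridine for 16 h, and then treated with 10 ng/ml LPS for 6 h by the stated protocol, although the sample titles carry the tag LPS7. No library of untreated cells was analysed here. The sources used here do not say how many mice went into a library. With 1 library per genotype there were no replicates to compare a difference with, so no p-value was calculated.

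Levels were deposited as FPKM, fragments per kilobase of exon scaled by the number of mapped fragments, which are comparable between genes of different length. A gene was counted as expressed where its mean over both libraries reached 1 FPKM. The number of fragments was estimated here from the steps between low FPKMs, at about 36880000 in WT and 32900000 in ΔM. *Zfp36* was at 65.26 FPKM in WT cells and 16.71 FPKM in ΔM cells. All 7 macrophage markers were above 3 FPKM in both libraries, and their summed level was 3695.56 FPKM in WT cells and 2538.64 FPKM in ΔM cells. Most of that sum was *Lyz2*, the lysozyme M gene, at 2480.86 and 1356.26 FPKM, whose locus carries the Cre in ΔM. The markers of T cells, B cells, neutrophils and fibroblasts summed to at most 1.04 FPKM in either library. The NK cell markers summed to 2.69 FPKM in WT cells and 2.6 FPKM in ΔM cells, almost all of it *Klrk1*, with *Ncr1* and *Klrb1c* under 1 FPKM. The plasmacytoid dendritic cell markers summed to 52.5 and 48.76 FPKM, of which *Tcf4* made up 52.41 and 48.55. In bulk RNA, fewer cells of a type and less RNA per cell cannot be told apart.

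Interferon beta is the type I interferon that macrophages make when LPS is sensed by TLR4, and it acts back on the cells that secrete it. It binds a receptor of the IFNAR1 and IFNAR2 chains, with which the kinases TYK2 and JAK1 associate, whereas interferon gamma binds the IFNGR1 and IFNGR2 chains, with which JAK1 and JAK2 associate. The kinases phosphorylate STAT proteins, which then turn on the interferon response genes. TTP binds AU-rich elements in mRNA, often in the 3′ UTR, and can promote decay of the bound mRNA. In the LPS-treated macrophages of the study, binding was also frequent in introns, and most mRNAs bound at either place were stable.

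The sequences of these genes that bear on TTP are of 2 kinds, crosslink sites and AU-rich words. Crosslink sites of TTP mapped by PAR-iCLIP after 6 h of LPS were listed for 3 of the 9 genes, *Ifnar1*, *Jak1* and *Jak2*, with 8 sites in all. The other 6 genes were without an entry in the copy of the list used here. The share of all expressed genes with an entry was not calculated, so 3 of 9 cannot be called many or few. All 8 site sequences were found at their stated positions of NCBIM37 (mm9), and 0 of them overlapped an annotated exon. They are shown because the sites listed for these RNAs lay in introns and not in 3′ UTRs. In the paper, introns were also the most frequent location over all listed sites, so this location is not particular to these genes. The list keeps only sites found in all replicates and above a minimum number of crosslinks. Weaker crosslinking elsewhere would therefore not appear in it. Each is the RNA-like strand written as DNA, 5′ to 3′, with the pentamer ATTTA in capitals. The first is the longest of the 5 sites in intron 2 of *Ifnar1* (chr16:91492551-91492570, plus strand), the next pair lies in intron 1 of *Jak1* (chr4:100877816-100877837 and chr4:100877844-100877863, minus strand), and the last lies in intron 2 of *Jak2* (chr19:29332289-29332305, plus strand).
*Ifnar1* intron 2: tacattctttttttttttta
*Jak1* intron 1, first site: tttattttactattgattctct
*Jak1* intron 1, second site: cattagtttttATTTATTTA
*Jak2* intron 2: attattaATTTAtattt

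The 4 sequences printed were 81.8% to 100% A or T, whereas the other 4 sites, all in *Ifnar1* and shorter than the one shown, were 50% to 66.7% A or T and held 0 copies of ATTTA. The second *Jak1* site held 2 overlapping copies of ATTTA, the *Jak2* site held 1, and the *Ifnar1* site and the first *Jak1* site held 0. All 5 *Ifnar1* sites fell within one short stretch of intron 2, and the longest ended 305 nt before the next exon. The *Jak2* site lay 4367 nt before the next exon and the second *Jak1* site 11375 nt before it, in an intron of 71178 nt. The table of levels has 1 value per gene, calculated on exons, so fragments from these introns were not measured by it.

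**Figure D1:**
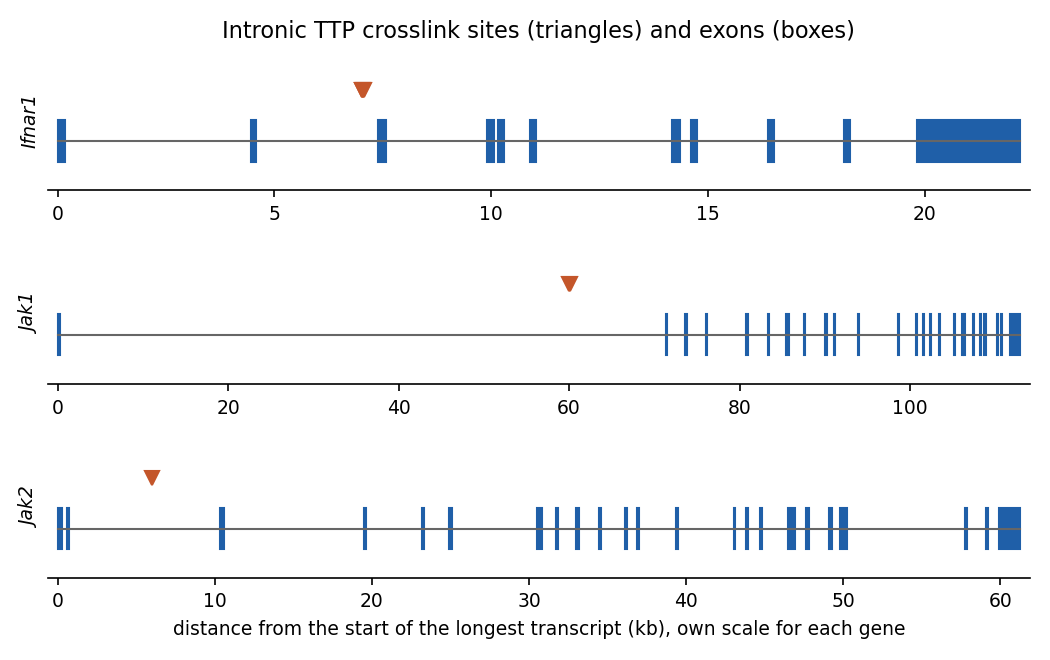
Exons (boxes) and intronic TTP crosslink sites (triangles) of *Ifnar1*, *Jak1* and *Jak2*, by distance in kb from the start of the longest annotated transcript, with an axis of its own for each gene. The sites of *Ifnar1* and *Jak2* lie in intron 2 and those of *Jak1* in intron 1, past the middle of the gene, and the 5 triangles of *Ifnar1* and the pair of *Jak1* coincide at this scale.

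In the 3′ UTRs, the pentamer ATTTA and the heptamer TATTTAT, which contains it, were counted on the transcribed strand of the longest annotated 3′ UTR. *Ifnb1* held 4 pentamers in 201 nt and *Jak1* 4 in 1128 nt, whereas *Ifngr2* held 5 in 2164 nt, *Jak2* 2 in 1232 nt, and *Ifnar1* and *Tyk2* 1 each. No pentamer was found in *Ifnar2*, *Ifngr1* or *Jak3*. The pentamer was thus present in 6 of the 9 genes, beside 66.6% of the 7938 expressed genes with a 3′ UTR. The heptamer was present in *Ifnb1* and *Jak2* only among the 9, beside 27.0% of those 7938 genes. The stretches of 30 nt around it are shown for these 2 genes, again with ATTTA in capitals.
*Ifnb1* 3′ UTR, positions 172 to 201: aacctcagaaaataaaatATTTAtaataca
*Jak2* 3′ UTR, positions 1194 to 1223: atttttgtgtgttATTTAtacaagatttta

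A match is a description of the letters in the annotated sequence and not a binding site. *Ifnb1* had the densest pentamers of the 9 genes, and its 3′ UTR was 67.7% A or T, whereas that of *Jak3* was 41.1%.

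The ligand was at the edge of detection in both libraries. *Ifnb1* (ENSMUSG00000048806, chr4:88167929-88168698, minus strand, 1 transcript of 770 nt) was listed at 0 FPKM in WT cells and 0.48 FPKM in ΔM cells. At the estimated depth, 0.48 FPKM corresponded to about 9 fragments (8.97), and the exact Poisson interval (95%) ran from 0.219 to 0.912 FPKM. A level of 3 fragments, which a count of 0 still allows, was 0.142 FPKM in WT, and the same interval for 0 reached 0.175 FPKM. The lower end of the ΔM interval was above both, for counting error only. With 1 library of each genotype this does not establish a difference. The mean of 0.24 FPKM was below the minimum for an expressed gene, so *Ifnb1* was left out of the ratios of the set. Its log2 ratio appears only among the alternatives of processing below.

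The other interferon genes were at or near 0 in both libraries. Of 20 listed interferon genes other than *Ifnb1*, 18 were in the table, all 18 were listed at 0 in WT, and 15 were listed at 0 in ΔM. The highest of them in ΔM were *Ifng*, which encodes interferon gamma, at 0.09 FPKM, *Ifna11* at 0.07 FPKM and *Il28b*, a type III interferon, at 0.06 FPKM. The interferon alpha genes are near-identical copies, and reads that could not be placed uniquely were dropped from the values, so that their level is uncertain. Common housekeeping genes were not at 0, although genes with many processed pseudogenes such as *Gapdh* stood at only 3.59 and 2.54 FPKM.

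In contrast to the ligand, all 4 receptor chains were well expressed, from 39.88 to 107.96 FPKM in WT cells and from 40.57 to 92.88 FPKM in ΔM cells. *Ifnar1* (ENSMUSG00000022967, chr16:91485483-91507686, plus strand), the chain that associates with TYK2, was at 76.52 FPKM in WT cells and 76.34 FPKM in ΔM cells. Its ΔM to WT ratio of FPKM was 0.998, with a counting interval (95%, conditional on the summed fragments) from 0.965 to 1.03. *Ifnar2* (ENSMUSG00000022971, chr16:91373028-91405834, plus strand), the chain that binds interferon with high affinity, was the highest of the 9 genes, at 107.96 FPKM in WT cells and 92.88 FPKM in ΔM cells. The ratio was 0.860, from 0.810 to 0.914, so the ΔM library was lower by more than counting error. A log2 ratio at least as far from 0 was found for 44.8% of expressed protein-coding genes.

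The chains of the interferon gamma receptor showed nearly the same level in both libraries. *Ifngr1* (ENSMUSG00000020009, chr10:19311755-19330035, plus strand), which binds the ligand, was at 39.88 FPKM in WT cells and 40.57 FPKM in ΔM cells, a ratio of 1.02 (0.897 to 1.15). *Ifngr2* (ENSMUSG00000022965, chr16:91547317-91565414, plus strand), which brings in JAK2, was at 86.73 FPKM in WT cells and 88.2 FPKM in ΔM cells, a ratio of 1.02 (0.984 to 1.05). The *Ifngr2* level was 2.17 times that of *Ifngr1* in both libraries. By comparison, the *Ifnar2* level was 1.41 times that of *Ifnar1* in WT and 1.22 times in ΔM.

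Of the receptor genes, *Ifnar2*, *Ifnar1* and *Ifngr2* lie in this order on the plus strand of chromosome 16, with *Il10rb* between *Ifnar2* and *Ifnar1*. *Il10rb*, which encodes a chain of the IL-10 receptor, was at 111.38 FPKM in WT cells and 90.69 FPKM in ΔM cells, a ratio of 0.814 (0.783 to 0.847). *Ifnar2* and *Il10rb* were therefore both lower in ΔM, whereas *Ifnar1* and *Ifngr2* further along were within counting error. In the table *Ifnar2* ends 574 nt before *Il10rb* starts. In the GENCODE M1 annotation used here, *Ifnar2* extends to position 91419696 and overlaps *Il10rb* on the same strand. If such longer transcripts were present, fragments of the 2 genes may not be fully separate. The transcript lengths behind the counting interval of *Ifnar2* came from that annotation and not from the deposited locus.

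Among the Janus kinases, *Jak2* stood apart as the member with the largest difference between the libraries. *Jak2* (ENSMUSG00000024789, chr19:29326318-29387570, plus strand), the kinase of IFNGR2 and of many cytokine receptors, was at 50.11 FPKM in WT cells and 37.36 FPKM in ΔM cells. The ratio was 0.746 (0.721 to 0.771), which is 25.4% lower in ΔM, on about 8853 fragments in WT and 5883 in ΔM. On the log2(FPKM + 1) scale, used from here on for log2 ratios, it was -0.41. Of the expressed protein-coding genes, 10.2% had a lower log2 ratio and 19.7% had one at least as far from 0. The difference was thus larger than counting error but well inside the range of protein-coding genes.

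*Jak1* (ENSMUSG00000028530, chr4:100824972-100937887, minus strand), which serves both receptors, was at 39.6 FPKM in WT cells and 39.94 FPKM in ΔM cells, a ratio from 0.899 to 1.13 by its counting interval. *Tyk2* (ENSMUSG00000032175, chr9:20908521-20931790, minus strand), the kinase of IFNAR1, was at 14.26 FPKM in WT cells and 12.53 FPKM in ΔM cells, a ratio of 0.879 (0.826 to 0.935). *Jak3* (ENSMUSG00000031805, chr8:74200195-74214474, plus strand), which pairs with the common gamma chain of interleukin receptors and with neither interferon receptor, was the lowest kinase at 6.43 FPKM in WT cells and 7.88 FPKM in ΔM cells. Its ratio of 1.23 (1.12 to 1.34) was the highest of the 8 genes with a ratio, and 37.9% of expressed protein-coding genes had a log2 ratio at least as far from 0. Gene models that overlap *Jak3* and *Tyk2* were at most at 0.26 FPKM in either library. Within the *Jak1* locus, a U6 gene on the opposite strand was listed at 24.31 and 18.33 FPKM and a pseudogene on its own strand at 4.4 and 4.98 FPKM.

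The composition of the kinases differed accordingly. The 4 kinases summed to 110.4 FPKM in WT cells and 97.71 FPKM in ΔM cells. *Jak2* made up 45.4% of that sum in WT and 38.2% in ΔM, and *Jak1* 35.9% and 40.9%. *Tyk2* held 12.9% and 12.8%, and *Jak3* 5.82% and 8.06%. Within a library, *Jak2* was 1.27 times *Jak1* in WT and 0.935 times *Jak1* in ΔM. These ratios within a library do not depend on the scaling between libraries.

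The order of levels in WT was *Ifnar2*, *Ifngr2*, *Ifnar1*, *Jak2*, *Ifngr1*, *Jak1*, *Tyk2*, *Jak3* and *Ifnb1*. Of the neighbours in this order, only *Ifngr1* and *Jak1* had overlapping counting intervals. In ΔM the order was the same down to *Ifnar1*, followed by *Ifngr1*, *Jak1*, *Jak2*, *Tyk2*, *Jak3* and *Ifnb1*. There the intervals of *Ifnar2* and *Ifngr2* overlapped, as did those of *Ifngr1* and *Jak1* and those of *Jak1* and *Jak2*. These intervals rest on the median transcript length, which was 630 nt for *Jak1* and 825.5 nt for *Ifnar2*. Their longest transcripts had 4906 and 3047 nt, with which the intervals would be narrower. The overlaps were not recalculated with the longest transcript and may depend on this choice.

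**Figure D2:**
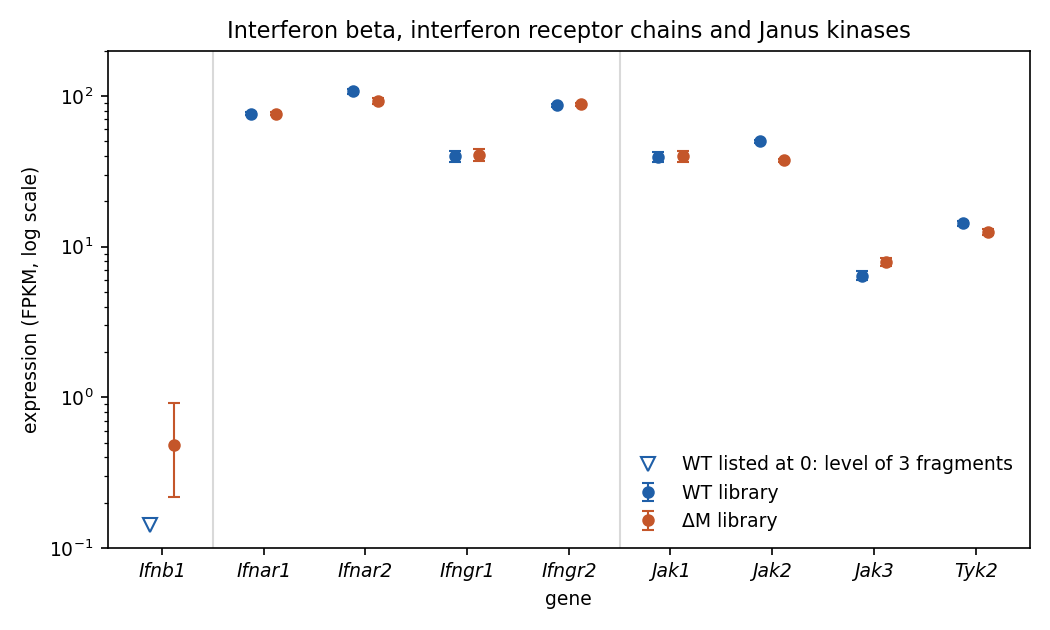
Level in FPKM (log scale) of the 9 genes in the WT library (blue) and the ΔM library (orange), 1 library each. Bars are 95% Poisson counting intervals, and the open triangle marks the level of 3 fragments (0.142 FPKM) for *Ifnb1*, listed at 0 in WT. The points of a gene nearly coincide except for *Ifnb1*, *Ifnar2*, *Jak2*, *Jak3* and *Tyk2*.

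Over the set, 8 of the 9 genes were counted as expressed, and *Ifnb1*, with a mean under 1 FPKM, was not. Of these 8, 0 differed by at least 1.5-fold on the log2(FPKM + 1) scale, compared with 18.7% of the 10765 expressed genes and 10.2% of the 8078 expressed protein-coding genes. The counting interval did not include a ratio of 1 for 4 of the 8 genes, with *Ifnar2*, *Jak2* and *Tyk2* lower in ΔM and *Jak3* higher. The same was so for 51% of 8045 protein-coding genes, so the share was close to the background.

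The median log2 ratio of the 8 genes was 0.0043, with 4 genes below 0 and 4 above, and it ranged from -0.41 to 0.26. Over all expressed genes the median was 0.03, and over the protein-coding genes it was -0.0015, with quartiles at -0.19 and 0.18. The signs of *Ifnar1*, *Ifngr1*, *Ifngr2* and *Jak1* carry no direction, since their ratios were within counting error and since a different scaling turned some of them.

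**Figure D3:**
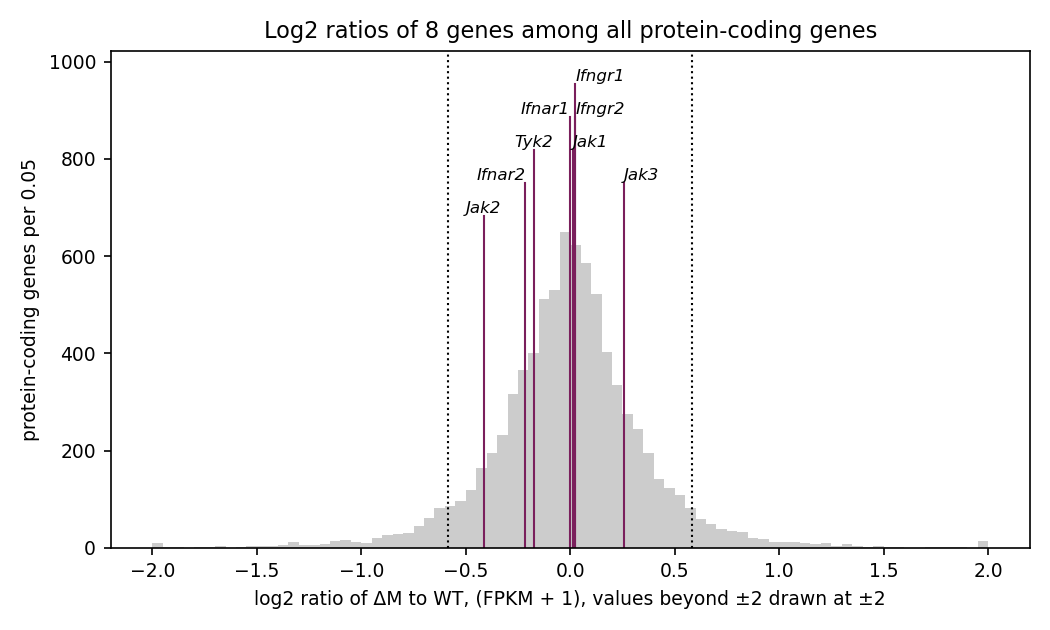
Number of expressed protein-coding genes (grey bars of width 0.05) by log2 ratio of ΔM to WT, calculated on FPKM + 1, with the 8 expressed genes of the set as lines and 1.5-fold as dotted lines. All 8 lines lie between the dotted lines, from *Jak2* at -0.41 to *Jak3* at 0.26, and 4 of them are crowded around 0.

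The genes around the receptors and kinases were described by lists chosen by function, with counts and medians and with no test. Counts past 1.5-fold are on the log2(FPKM + 1) scale, and ratios of single genes are plain ratios of FPKM. The genes that lead from TLR4 to *Ifnb1* were expressed in both libraries. Of 13 listed, 12 were expressed, 0 passed 1.5-fold on that scale, and the median log2 ratio was -0.10. *Jun*, a subunit of AP-1, reached it by the plain ratio, at 2.32 FPKM in WT cells and 3.58 FPKM in ΔM cells. The 2 highest were *Irf7*, an interferon regulatory factor, at 988.91 FPKM in WT cells and 994.42 FPKM in ΔM cells, and *Cd14*, a co-receptor for LPS, at 116.9 and 109.75 FPKM.

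Of the STATs and *Irf9*, 7 of 8 were expressed and 1 passed 1.5-fold, with a median log2 ratio of -0.0076. That gene was *Stat5a*, which acts downstream of JAK2 at the receptors of several cytokines. It was at 29.05 FPKM in WT cells and 16.62 FPKM in ΔM cells, a ratio of 0.572 (0.541 to 0.605) and a log2 ratio of -0.77. *Stat3*, the highest of the list, was at 376.34 and 374.35 FPKM.

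Of the inhibitors of this signalling, 14 of 16 were expressed, with 1 lower by at least 1.5-fold and 0 higher, and a median log2 ratio of 0.05. The lower one was *Ptpn6*, a tyrosine phosphatase of blood cells also called SHP-1, at 678.01 FPKM in WT cells and 409.63 FPKM in ΔM cells, a ratio of 0.604 (0.578 to 0.632). *Usp18*, which blocks JAK1 at IFNAR2, was at 304.69 FPKM in WT cells and 376.18 FPKM in ΔM cells.

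Of 26 other receptor chains that use Janus kinases, 14 were expressed, 1 was higher by at least 1.5-fold and 0 lower, with a median log2 ratio of 0.12. The higher one was *Il21r*, at 2.59 FPKM in WT cells and 5.82 FPKM in ΔM cells, a ratio of 2.25 (1.90 to 2.67). *Il10ra*, a chain of the IL-10 receptor, was at 15.6 FPKM in WT cells and 23.4 FPKM in ΔM cells, a plain ratio of 1.5, and did not pass on the log2 scale. *Il4ra*, the highest receptor of the list, was at 469.79 and 647.14 FPKM.

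The interferon response genes were abundant in both libraries. All 24 type I response genes were expressed and 0 passed 1.5-fold, with log2 ratios from -0.47 to 0.35 and a median of 0.06. *Cxcl10*, a chemokine, was at 4171.27 FPKM in WT cells and 4521.46 FPKM in ΔM cells. *Rsad2*, which encodes the antiviral protein viperin, was at 731.27 FPKM in WT cells and 526.74 FPKM in ΔM cells and had the lowest log2 ratio of the list. Of the interferon gamma response genes, 14 of the 16 found were expressed and 0 passed 1.5-fold, with a median log2 ratio of 0.05. The 2 highest were *Gbp2*, a guanylate-binding protein, at 555.32 and 590.45 FPKM, and *Nos2*, the inducible nitric oxide synthase, at 277.41 and 366.79 FPKM. In all, 3 of 85 expressed genes passed 1.5-fold over the lists, beside the 10.2% of protein-coding genes given above. By the plain ratio 5 of 85 passed, with *Jun* and *Il10ra*, 2 genes named after their values were seen, beside 17.1% of 8065 protein-coding genes.

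**Figure D4:**
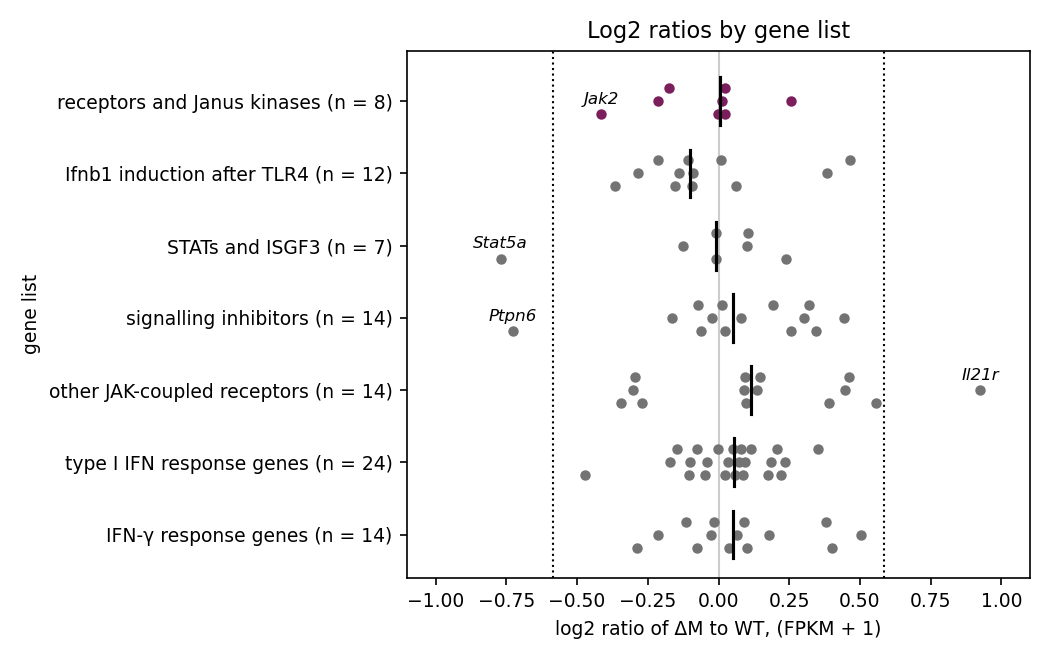
Log2 ratio of ΔM to WT, calculated on FPKM + 1, for each expressed gene (points, spread vertically for legibility) in the receptor and kinase set (top row) and in 6 lists of related genes, with the median of each list as a black bar and 1.5-fold as dotted lines. *Stat5a* and *Ptpn6* lie below the lower line, *Il21r* lies above the upper one, and the medians lie between -0.10 and 0.12.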

How the data were processed

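The deposited values are FPKM with 2 decimals, 1 value per gene and library. The ΔM column was assigned from a header whose first letter of ΔM is unreadable. The authors mapped trimmed paired-end reads of rRNA-depleted RNA with Segemehl (mm9), discarded those without a unique position and calculated FPKM with Cufflinks on Ensembl exons. Dropping reads that map to several places lowers genes with near-identical copies. Since FPKM are not counts, count models were not applied.

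For expressed genes (mean of 1 FPKM or more), 1 FPKM was added to both values before the log2 of ΔM over WT was taken, which understates changes of weakly expressed genes. The depth given is the one at which low FPKMs of genes with 1 transcript fall on whole fragments, searched together with the mean fragment length (199 nt in WT, 203 nt in ΔM). Of these values 94.9% in WT and 95.0% in ΔM were whole within 0.2. The search was tested on data simulated with the formula that it inverts, which cannot check that formula. The share of whole values follows from what the search maximizes, so it is not an independent check. Intervals (95%), which cover counting error only, rest on this depth and on the median length of the annotated transcripts and are approximate.

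Gene types, strands, introns and 3′ UTRs came from GENCODE M1 on NCBIM37 (mm9), which held 37039 of the 37451 identifiers. For a symbol with 2 rows the higher was used. From each list, genes past 1.5-fold (at most 4 in either direction) and the 2 highest by mean FPKM were named. One gene that this rule names is not reported here. The members and lists were chosen with earlier results of these data known. *Irf8* was not analysed here. Alternatives covered the pseudocount, scaling, filter, fold and transcript length. Python 3.11.15, numpy 2.4.6, pandas 2.3.3, scipy 1.17.1 and matplotlib 3.10.9 were used.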

Additional observations from a re-analysis of the deposited data

How the results depend on the processing

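No paired analysis was possible because each genotype has 1 library. Leaving out a library was not possible either. The count of 0 of 8 genes past 1.5-fold was the same at 2-fold, with a pseudocount of 0.1 FPKM, at a mean of at least 10 FPKM and under the 3 scalings (of the scalings, 2 were added for this count after seeing the data). Without a filter it was 0 of 9, since *Ifnb1* stayed under 1.5-fold with 1 FPKM added. With 0.1 FPKM added and no filter, an alternative chosen after seeing the data, 1 of 9 passed, *Ifnb1*, whose log2 ratio went from 0.57 to 2.54. That ratio depends on the value added, because WT is listed at 0. The background share fell from 18.7% to 10.2% with protein-coding genes only. Subtracting the median log2 ratio of genes at 10 FPKM or more (a shift of -0.04) put 7 of the 8 genes below 0, where 4 were before, because *Ifngr1*, *Ifngr2* and *Jak1* crossed 0. Scaling to the FPKM sum of protein-coding genes put 3 below, because *Ifnar1* crossed 0. *Jak2* stayed between -0.45 and -0.41 under all 5 alternatives, and *Ifnar2*, *Tyk2* and *Jak3* kept their sign. The median of the members stayed between -0.03 and 0.01. With the longest transcript, or with centred ratios (added after seeing the data), 4 counting intervals again did not include a ratio of 1. Over the lists, 3 genes passed 1.5-fold, 0 passed 2-fold and 2 passed 1.5-fold at a mean of at least 10 FPKM. With 0.1 FPKM added 4 passed, and without a pseudocount 5 passed, both chosen after seeing the data. The depth limits what can be said of *Ifnb1*, whose ΔM value rests on about 9 fragments, and nothing here measures the spread between animals or cultures.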

Other observations

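The genes named in this section were chosen after their values were seen. *Socs1* and *Socs3* encode feedback inhibitors of the Janus kinases. *Socs1* was at 9.58 FPKM in WT cells and 11.08 FPKM in ΔM cells, a ratio from 0.998 to 1.34 by its counting interval, and *Socs3* was at 114.47 and 137.06 FPKM, a ratio of at least 1.11 by its interval. *Cish*, another of the listed inhibitors, was at 0.41 FPKM in WT cells and 0.04 FPKM in ΔM cells, both too low to count as expressed. *Socs2*, of the same list of inhibitors, went the other way, at 0.17 FPKM in WT cells and 0.61 FPKM in ΔM cells. Its values were also too low to count as expressed. *Stat5b* was not lower in ΔM, at 8.14 and 8.82 FPKM, a ratio from 1.01 to 1.17 by its counting interval.

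The chains of the GM-CSF receptor, which signals through JAK2 and STAT5, were both lower in ΔM. *Csf2ra* was at 43.49 FPKM in WT cells and 35.85 FPKM in ΔM cells, a ratio of 0.824 (0.777 to 0.874), and *Csf2rb* was at 31.77 and 25.58 FPKM, a ratio of 0.805 (0.772 to 0.839). *Csf2rb2*, at 8.14 and 8.76 FPKM, and *Csf3r*, at 17.04 and 18.82 FPKM, were not lower in ΔM. Of the 14 expressed genes in that list of receptor chains, 10 had a log2 ratio above 0 and 4 below. A link of these chains to *Jak2* or *Stat5a* was not tested. The 2 chains of the IL-10 receptor, which uses JAK1 and TYK2, differed in opposite directions: *Il10ra* was higher and *Il10rb* lower in ΔM, by the values given above. *Tlr4*, the LPS receptor, was at 12.24 FPKM in WT cells and 16.26 FPKM in ΔM cells, and *Cd274*, which encodes PD-L1, was at 100.29 and 142.72 FPKM. None of these differences has a replicate check in the libraries used here. The study also sequenced both genotypes with biological replicates in a separate experiment, which was not used here.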
